A study of Mus musculus with 2 samples.

Results

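Sister chromatid cohesion in the mouse egg was followed through the mRNA of 8 genes, namely the meiotic cohesin subunits Rec8, Smc1b, Smc3 and Stag3, the shugoshins Sgo1 and Sgo2a, the protease separase (Espl1) and its inhibitor securin (Pttg1). The genes were chosen by symbol for these roles and matched to Ensembl identifiers, which gave 8 of the 36227 genes in the deposited table. Of the 8, 7 had counts and 3 (Pttg1, Espl1 and Smc3) reached 10 CPM (counts scaled to a library total of 1000000) in at least 1 library. The slimming library came from slimming mothers, ICR females of an outbred strain that were obese at 12 weeks of age and then spent 4 weeks in enriched-environment cages. The control library came from mothers of the same strain, also obese at 12 weeks, that stayed in normal cages and whose label gives a standard diet. At 16 weeks of age, ovulated oocytes at metaphase II were collected from 3 mice per group. Each mouse gave 3, and a group's 9 oocytes were lysed in 1 tube and sequenced as 1 library. With 1 pooled library per group there was no replicate, the groups could not be tested, and each difference below describes these 2 libraries.

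Cohesin is a ring built from a pair of SMC proteins, a kleisin and a STAG subunit that holds sister chromatids together. Meiotic cells replace the mitotic kleisin RAD21 by REC8, SMC1A by SMC1B and STAG1 or STAG2 by STAG3, while SMC3 serves both kinds of ring. In mouse oocytes the REC8 rings are laid down before birth. Separase cuts REC8 along chromosome arms at the first division, and shugoshins, which bring the phosphatase PP2A to centromeres, shield the REC8 left there. An ovulated egg waits at metaphase II with separase held by securin and by CDK1 with cyclin B1, and fertilization leads the anaphase-promoting complex to destroy securin and cyclin B1.

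Because cDNA synthesis was primed on the poly(A) tail, synthesis began at the 3′ ends of these transcripts. The levels below are therefore of cDNA primed in this way, and the effect of tail length on them was not tested. Levels per kilobase take counts to rise with transcript length, which was also not tested for such cDNA. The annotated ends of Pttg1 and Espl1, the most abundant, of Smc3 and Sgo2a, and of Rec8, which had no count, are shown. Each is a stretch of 30 bases of the annotated transcript, 5′ to 3′ in the direction of the gene, with the polyadenylation signal hexamer in capitals where one was found. The stretches lie at chr11:43420271-43420300 on the minus strand (Pttg1), chr15:102324324-102324353 on the plus strand (Espl1) and chr19:53645804-53645833 on the plus strand (Smc3). Those of Sgo2a and Rec8 lie at chr1:58025864-58025893 on the plus strand (Sgo2a) and chr14:55625358-55625387 on the plus strand (Rec8). All are in build GRCm38 of GENCODE vM21 and near the 3′ end of the annotated transcript.
Pttg1: gtatgttgtattAATAAAgcatttgtgcat
Espl1: taatgtgaccttAATAAAgatattccaagc
Smc3: cattcatgtgccataaaatttacccatgta
Sgo2a: ttttaaatacaaATTAAAaaaagttttaaa
Rec8: ctgagcaagttcATTAAAccatatcctgcc
The hexamers AATAAA and ATTAAA were searched on the transcript strand in the last 50 bases. AATAAA was present in 4 of the 8 genes (Pttg1, Espl1, Sgo1 and Stag3), ATTAAA alone in 2 (Sgo2a and Rec8) and neither in 2 (Smc3 and Smc1b). Among 13992 protein-coding genes with counts the shares were 63.8%, 14.4% and 21.8%. A hexamer was thus found in the most abundant gene and in the gene without counts alike, and Smc3, the third in abundance, had neither.

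Depth was similar, with 20947962 counts in the slimming library, where 15831 genes were detected, and 20242289 counts in the control library, where 16466 were. All 10 oocyte markers examined were detected in both, between 180 and 44674 CPM in the slimming library and between 158 and 45613 CPM in the control library, with Gdf9 highest. Their log2 ratios of slimming over control ran from -0.12 (H1foo) to 1.03 (Zp3), with Gdf9 at -0.06, Zp2 at 0.81 and Zp1 at 0.94. Of 13 cumulus and granulosa markers, 4 were detected in the slimming library, against 7 in the control library, summing to 41.3 CPM in the slimming library and 57.0 CPM in the control library. Most of this was Cyp19a1, at 34.5 CPM in the slimming library and 39.2 CPM in the control library. Fshr, Amh, Foxl2, Ptgs2, Ptx3 and Amhr2 had no count in either library, and Inha had 0 counts in the slimming library, against 63 in the control library. Of 12 immune markers, 4 were detected in the slimming library (25.8 CPM in sum), against 11 in the control library (45.5 CPM), with H2-Aa highest. Markers of dividing cells, 6 of 6 detected in each library, summed to 460 CPM in the slimming library and 526 CPM in the control library. Mcm2 gave 325 CPM of this in the slimming library and 382 CPM in the control library, and oocytes also express several of them.

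Securin dominated the group. Pttg1 (ENSMUSG00000020415, chromosome 11) had 298783 counts (14263 CPM) in the slimming library and 252455 counts (12472 CPM) in the control library. It was the 5th most abundant gene in the slimming library and the 6th in the control library by CPM. Per kilobase of the longest annotated transcript its level was 8520.4 CPM in the slimming library and 7450.2 CPM in the control library, the 4th highest level in the slimming library and the 5th in the control library. On this scale Pttg1 made up 98.8% of the summed level of the 8 genes in the slimming library, against 98.6% in the control library.

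Pttg1 was 1.12-fold higher in the slimming library, a log2 ratio of 0.16 with a 95% counting interval of 0.15 to 0.17. That interval covers the sampling of reads only, and the ratio lay above that of 64.8% of the expressed genes, whose median was 0.02. With the trend of the ratio on transcript length removed, the log2 ratio of Pttg1 was 0.07. The 3 expressed genes nearest to Pttg1 in log2 CPM of both libraries were Bpgm, Bcl2l10 and Tcl1, at distances of 0.38, 0.51 and 0.71 log2 units over 2 libraries.

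Separase mRNA was far lower than that of its inhibitor and nearly equal between the libraries. Espl1 (ENSMUSG00000058290, chromosome 15) had 13289 counts (634 CPM) in the slimming library and 12941 counts (639 CPM) in the control library. Its log2 ratio was -0.04, with a counting interval of -0.08 to -0.01, and it turned positive (0.05, 0.01 to 0.08) with the length trend removed. The interval included 0 with total-count scaling (-0.05 to 0.02) and with DESeq2 size factors (-0.06 to 0.01). Per kilobase, Pttg1 stood 89.4-fold above Espl1 in the slimming library (counting interval 87.9 to 91.0) and 77.6-fold above it in the control library (76.2 to 79.0). The size of this ratio depends on the transcript lengths taken. With the length of the principal protein-coding transcript of each gene it was 202-fold in the slimming library, against 175-fold in the control library. With the median length of the annotated transcripts of each gene it was 21.2-fold in the slimming library, against 18.4-fold in the control library, and without length 22.5-fold in the slimming library, against 19.5-fold in the control library. By these counts, securin mRNA was in excess of separase mRNA in both libraries under every length used, and without length.

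**Figure D1:**
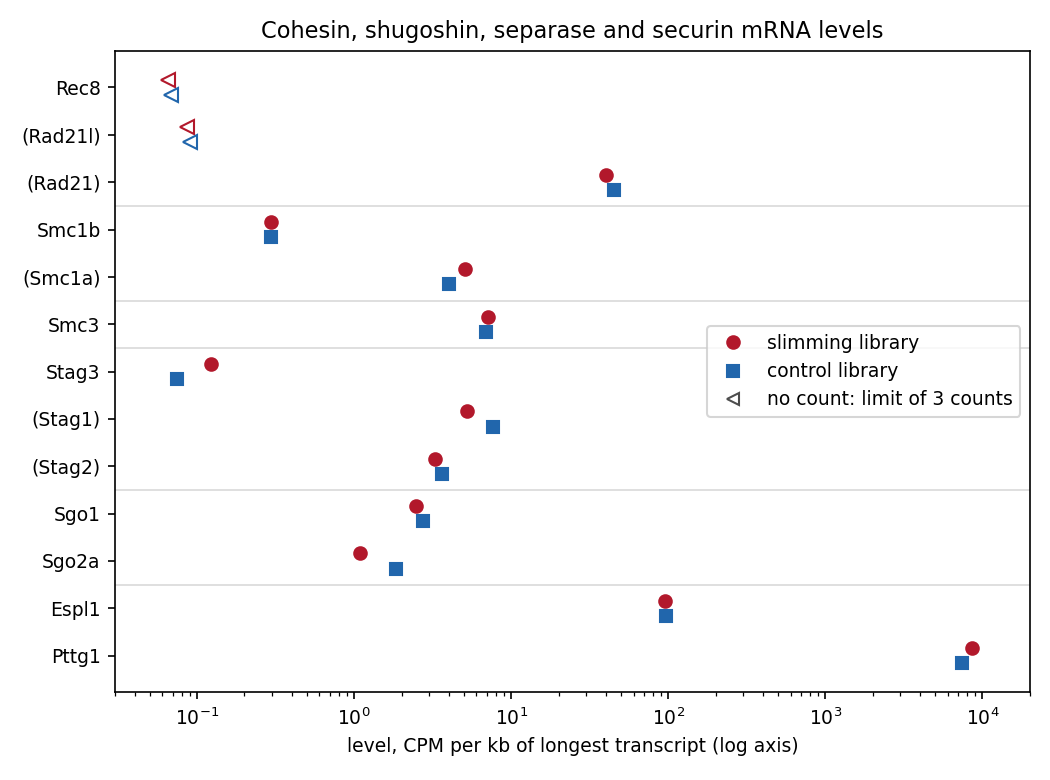
Level of each gene in CPM per kb of its longest annotated transcript, on a log axis, in the slimming library (red circles, upper of each pair) and the control library (blue squares, lower); genes in parentheses are the mitotic or other counterparts, and open triangles mark the limit that a count of 0 allows. Pttg1, Espl1, Smc3 and Smc1b sit at 8520.4, 95.3, 7.11 and 0.295 in the slimming library, against 7450.2, 96.0, 6.86 and 0.293 in the control library.

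Of Rec8, Smc1b, Smc3 and Stag3, only Smc3, which meiotic and mitotic rings share, was expressed above 10 CPM. Smc3 (ENSMUSG00000024974, chromosome 19) had 722 counts (34.5 CPM) in the slimming library and 674 counts (33.3 CPM) in the control library. Its log2 ratio was 0.02, with a counting interval of -0.13 to 0.17 that included 0. Of its longest transcript, 3.03% matched transcripts of 2 other genes at 95% identity or more.

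The subunits specific to meiosis had few counts in these poly(A)-primed libraries. Smc1b (ENSMUSG00000022432, chromosome 15), the meiotic partner of SMC3, had 25 counts in the slimming library and 24 counts in the control library, or 1.19 CPM in each. The log2 ratio was -0.02, with a counting interval of -0.89 to 0.85 that included 0. Stag3 (ENSMUSG00000036928, chromosome 5), the meiotic STAG subunit, had 12 counts (0.573 CPM) in the slimming library and 7 counts (0.346 CPM) in the control library. Its log2 ratio of 0.66 had an interval of -0.77 to 2.28 that included 0. Of the longest Stag3 transcript, 2.38% matched transcripts of 57 other genes at 95% identity or more. The low counts of both subunits leave their ratios poorly defined.

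Rec8 (ENSMUSG00000002324, chromosome 14), the kleisin that separase cuts in meiosis, had no count. Its entries were blank in both libraries, and since no gene of the table was listed at 0 in both, a blank was read as no count in either. Such a result allows up to 3 counts, which is 0.143 CPM in the slimming library and 0.148 CPM in the control library. No ratio between the libraries was given for Rec8. Rad21l, a further meiotic kleisin, was blank in the same way.

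Counts of the mitotic counterparts exceeded those of the meiotic subunits in both libraries. Rad21, the mitotic kleisin, had 3341 counts in the slimming library and 3621 counts in the control library. With Rec8 set at 3 counts per library, Rad21 stood 615-fold above it per kilobase in the slimming library, against 666-fold in the control library. At 3 counts Rec8 would have made up 0.163% of the summed kleisin level per kilobase in the slimming library, against 0.150% in the control library. The exact 95% binomial interval of its share reached up to 0.200% in the slimming library, against 0.184% in the control library. With median transcript lengths that interval reached up to 0.334% in the slimming library, against 0.309% in the control library.

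Smc1a, the mitotic counterpart of Smc1b, had 498 counts in the slimming library and 383 counts in the control library. Smc1b made up 5.5% of the Smc1a and Smc1b level per kilobase in the slimming library (exact binomial interval 3.60 to 8.0) and 6.77% in the control library (4.39 to 9.89). Stag1 and Stag2, the mitotic STAG subunits, had 672 and 422 counts in the slimming library and 962 and 453 counts in the control library. Stag3 made up 1.43% of the summed STAG level per kilobase in the slimming library (0.742 to 2.48) and 0.651% in the control library (0.262 to 1.33). Within each of these pairs of values the intervals of the libraries overlapped. With median transcript lengths the Smc1b share was 1.4% in the slimming library, against 1.74% in the control library.

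**Figure D2:**
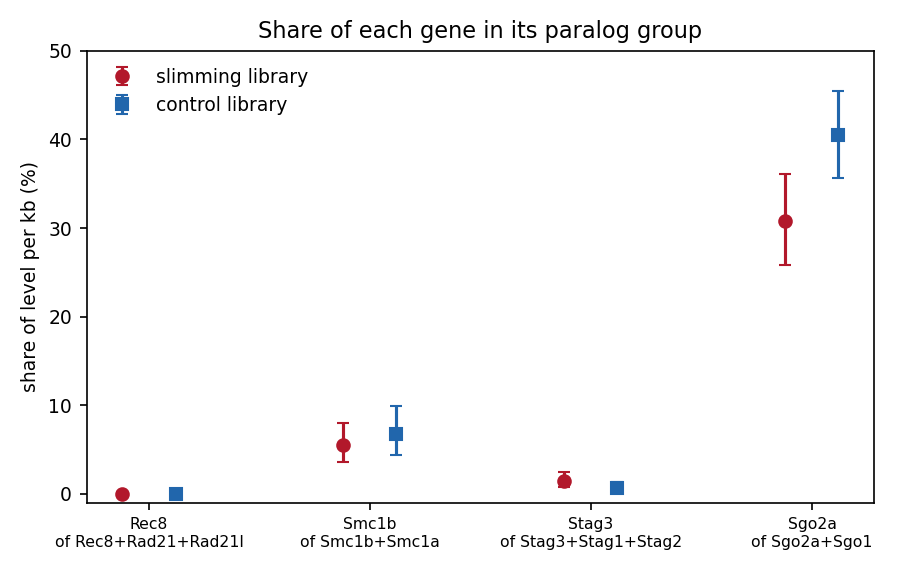
Share, in percent, of Rec8, Smc1b, Stag3 and Sgo2a in the summed level per kb of their paralog group in the slimming library (red circles, left of each pair) and the control library (blue squares, right), with exact 95% binomial intervals as bars. The meiotic subunits hold between 0 and 6.77% of their groups in both libraries, and Sgo2a holds 30.7% in the slimming library, against 40.5% in the control library.

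Both shugoshins were detected below 10 CPM. Sgo1 (ENSMUSG00000023940, chromosome 17), which guards centromeric cohesion mainly in mitosis, had 187 counts (8.93 CPM) in the slimming library and 200 counts (9.88 CPM) in the control library. Its log2 ratio was -0.18, with a counting interval of -0.47 to 0.12 that included 0. Sgo2a (ENSMUSG00000026039, chromosome 1), the shugoshin that protects REC8 in mouse oocytes, had 113 counts (5.39 CPM) in the slimming library and 185 counts (9.14 CPM) in the control library. Its level was 1.73-fold lower in the slimming library (log2 ratio -0.79), with a counting interval of -1.14 to -0.45. With TMM scaling, Sgo2a was the only gene of the group besides Pttg1 and Espl1 whose counting interval left out 0. For Espl1 this depended on the scaling. Sgo2a was also the one of the 7 with the lowest ratio.

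Sgo2a shares exon bases with Kctd18, a gene on the opposite strand, over 2358 bases of its large internal exon (chr1:58015626-58017983, GRCm38) and over 2 stretches of 28 and 69 bases. In all, 49.3% of its longest transcript was also Kctd18 sequence. Kctd18 had 644 counts in the slimming library and 685 counts in the control library, and its log2 ratio was -0.17. The use of strand in counting is not given in the sources used here, so reads of the 2 genes may not have been told apart and the counts of Sgo2a are uncertain. Among all 4851 genes with a mean between 1 and 10 CPM, 17.3% had a log2 ratio at or below that of Sgo2a. Immune and cumulus marker sums were lower in the slimming library in the same direction as Sgo2a, and their part in its ratio was not tested. For cell types other than the 9 oocytes of each library, fewer cells and less RNA per cell cannot be told apart in such pooled samples. Sgo2b, a related shugoshin gene, was not analysed here and is counted without a value in the list of further genes below.

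Of the 2 shugoshins, Sgo1 had the higher level per kilobase, 2.25-fold above Sgo2a in the slimming library (1.77 to 2.87) and 1.47-fold above it in the control library (1.20 to 1.81). Sgo2a thus made up 30.7% of their summed level in the slimming library (25.8 to 36.0) and 40.5% in the control library (35.6 to 45.5), 2 intervals that overlapped narrowly. With median transcript lengths the share was 7.0% in the slimming library, against 10.3% in the control library, and without length 37.7% in the slimming library, against 48.1% in the control library (43.0 to 53.2, an interval that included equal counts). The 3 expressed genes nearest to Sgo2a in log2 CPM were Rpn2, Bhlhe41 and Coro1c, at 0.13, 0.16 and 0.21 log2 units. All 3 reached 10 CPM in the control library only, and genes under 10 CPM in both libraries were not searched. Stag3, the gene with the highest ratio, lay too far under 10 CPM for an expressed gene to be near it.

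Ordered by level per kilobase, the genes ran Pttg1, Espl1, Smc3, Sgo1, Sgo2a, Smc1b and Stag3 in both libraries, with Rec8 undetected. The closest neighbours in that order were Sgo1 and Sgo2a in the control library. Smc1b exceeded Stag3 2.4-fold in the slimming library (1.16 to 5.25) and 3.96-fold in the control library (1.65 to 10.9). Smc3 exceeded Sgo1 2.89-fold in the slimming library (2.46 to 3.41) and 2.52-fold in the control library (2.15 to 2.97). With the longest transcripts, no counting interval between neighbours in the order included 1, and none did with principal transcripts. With median transcript lengths the interval of Smc1b over Stag3 included 1, at a ratio of 0.94 in the slimming library (0.455 to 2.05) and 1.55 in the control library (0.647 to 4.25), so that their order turned in the slimming library. Without length that of Sgo1 over Sgo2a included 1 in the control library, at 1.08 (0.881 to 1.33).

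None of the 7 genes with counts differed 2-fold or more between the libraries. Of all 5714 genes that reached 10 CPM in 1 or both libraries, 2.73% were higher in the slimming library by 2-fold or more and 1.94% were lower by as much. Because 4 of the 7 genes lay under that level, the shares over all 18017 genes with counts, 17.7% higher and 20.9% lower, are given as well. The median log2 ratio of the 7 genes was -0.02, against 0.02 for the expressed genes, with 3 genes above and 4 below that median. For the 3 genes that reached 10 CPM, a count of 0 is near the background of expressed genes.

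**Figure D3:**
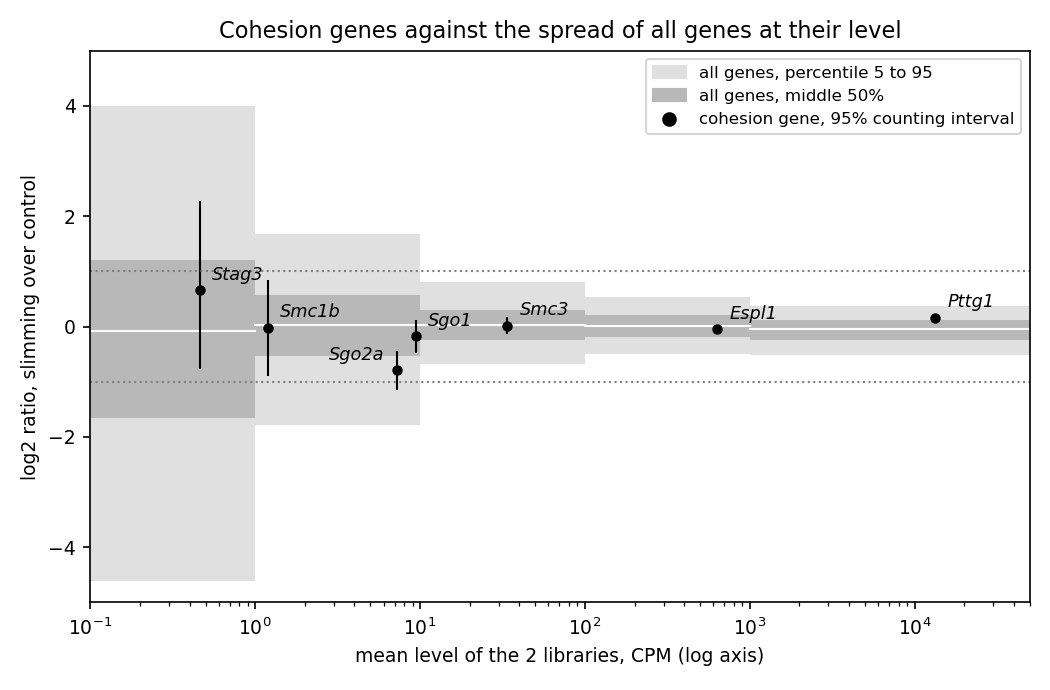
Log2 ratio of slimming over control against the mean level of the 2 libraries in CPM on a log axis; black points are the 7 cohesion genes with counts and their 95% counting intervals, dark and light grey bands are the middle 50% and the percentiles 5 to 95 of all genes in each range of levels, and dotted lines mark a 2-fold difference. Sgo2a, at -0.79, lies below the dark band and inside the light band, and Pttg1, at 0.16, just above the dark band.

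The spread of all genes widened towards low levels. Between 0.1 and 1 CPM, where Stag3 falls, percentiles 5 and 95 of the log2 ratio lay at -4.60 and 4.01. Between 1 and 10 CPM, percentiles 5 and 95 of the log2 ratio lay at -1.78 and 1.67, a range that held Sgo1, Sgo2a and Smc1b. Between 10 and 100 CPM, where Smc3 falls, they lay at -0.68 and 0.80, and between 100 and 1000 CPM, where Espl1 falls, at -0.49 and 0.54. Above 1000 CPM, the range of Pttg1, they lay at -0.51 and 0.38 over 136 genes. Each of the 7 genes was inside the range of its level.

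The wider machinery of cohesion was taken from a list of 40 further genes, of which 30 were expressed. None of the 30 was at least 2-fold apart, against 2.73% higher and 1.94% lower among all expressed genes. With no filter on low counts, 1 of 38 genes with counts (Mau2) was higher by 2-fold or more and 3 (Pds5a, Ppp2r5d and Cdk1) were lower, against 17.7% and 20.9% of all genes with counts. The sets differ in level, since 30 of these 38 genes reached 10 CPM, against 5714 of all 18017 genes with counts. Of those that reached 5 CPM, Mau2 was higher and Ppp2r5d lower, against 4.05% higher and 3.23% lower among all 7276 genes at that level. The median log2 ratio of the 30 expressed genes was 0.09, with 18 genes above and 12 below the median over expressed genes.

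Of the other cohesin subunits, 4 of 5 were expressed, 1 above and 3 below that median. Rad21 had a log2 ratio of -0.20 (counting interval -0.26 to -0.13) and Stag1 one of -0.60 (-0.74 to -0.46), the lowest of the 30. Smc1a had 0.30 (0.10 to 0.49) and Stag2 -0.18 (-0.38 to 0.01).

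Factors that load, acetylate and release cohesin had 7 of 9 members expressed, 3 above and 4 below the median. Cdca5 (sororin), which locks acetylated cohesin onto sister chromatids, had 640 CPM in the slimming library and 591 CPM in the control library, and its log2 ratio was 0.08. Wapl, which opens the ring, had 279 CPM in the slimming library, against 255 CPM in the control library, with a log2 ratio of 0.10. Mau2, part of the cohesin loader, was at 7.78 CPM in the slimming library and 3.06 CPM in the control library, with a log2 ratio of 1.31 (0.88 to 1.76), and Pds5a had 8 counts in the slimming library, against 22 in the control library, with a log2 ratio of -1.49. Both lay below 10 CPM and were named after their values were seen. Of the longest Mau2 transcript, 3.02% matched transcripts of 174 other genes at 95% identity or more. For Pds5a, 4.26% matched transcripts of 2 other genes.

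Among genes that recruit protectors and form PP2A, 8 of 14 were expressed, 6 above and 2 below the median. Ppp2r1a, the scaffold subunit of PP2A, had 377 CPM in the slimming library and 308 CPM in the control library, and its log2 ratio was 0.26 (0.21 to 0.31). Ppp2r5c, a B56 subunit of the kind that binds shugoshin, had 74.7 CPM in the slimming library, against 67.0 CPM in the control library, with a log2 ratio of 0.13 (0.02 to 0.23). Ppp2r5d, another B56 subunit, had 65 counts in the slimming library, against 125 in the control library. Its log2 ratio was -1.02 (-1.48 to -0.58), and it was named after its value was seen. It lay under 10 CPM and shares exon bases with Mea1 on the opposite strand.

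Kinases and other regulators of cleavage had 11 of 12 members expressed, 8 above and 3 below the median. Ccnb1, the cyclin that with CDK1 holds separase inactive, had 1584 CPM in the slimming library and 1444 CPM in the control library, and its log2 ratio was 0.10 (0.08 to 0.12). Its longest transcript shares 51.9% of its bases with 4 other annotated genes at 95% identity or more. Per kilobase of the longest transcripts, Pttg1 exceeded Ccnb1 13.4-fold in the slimming library, against 12.8-fold in the control library. Without length it did so 9.00-fold in the slimming library, against 8.64-fold in the control library. Cdca8 (borealin), a subunit of the chromosomal passenger complex, had 1491 CPM in the slimming library, against 1379 CPM in the control library, with a log2 ratio of 0.08. Fzr1, an activator of the anaphase-promoting complex, had the highest ratio of the 30 genes, 0.64 (0.54 to 0.74), at 100.2 CPM in the slimming library and 62.8 CPM in the control library, and shares exon bases with Mfsd12. Cdk1, named like Fzr1 after its value was seen, had 6 counts in the slimming library and 25 counts in the control library, and its log2 ratio was -2.05 (-3.72 to -0.82). Its mean of 0.761 CPM lay far under 10 CPM, in the range from 0.1 to 1 CPM that also held Pds5a. Of all 4343 genes in that range, 33.3% were lower in the slimming library by 2-fold or more.

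**Figure D4:**
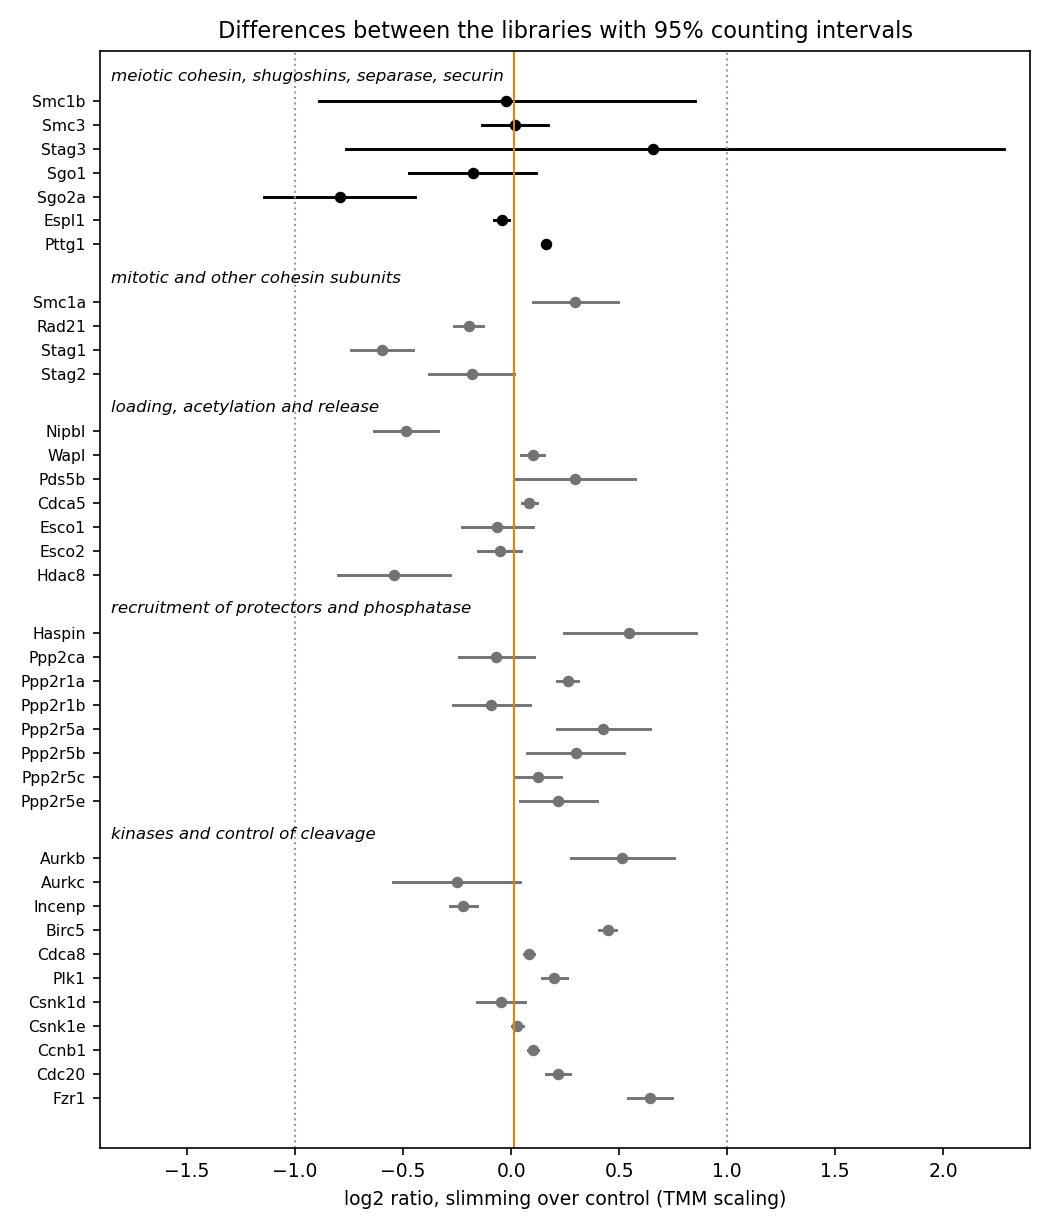
Log2 ratio of slimming over control (x axis) for the 7 genes with counts (black) and the 30 expressed genes of the wider machinery (grey), grouped by role, with 95% counting intervals as bars; the orange line is the median of all expressed genes and dotted lines mark a 2-fold difference. All points lie between the dotted lines, from -0.79 for Sgo2a to 0.66 for Stag3.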

How the data were processed

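Oligo(dT)-primed cDNA of 9 pooled oocytes per group was amplified for 18 and 14 PCR cycles and sequenced on a SOLiD 4 instrument, per the labels' protocols. The authors deposited raw read counts per Ensembl gene, with the slimming library first per the file headers, and the submitters' processing notes give build mm9. Which aligner, counter and strand setting they used is not given in the sources used here, and no molecular identifiers are named, so PCR copies cannot be separated from molecules. The deposited log2 ratios, score (z-score), p-values and q-values were not used.

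Symbols, transcript lengths and exon overlaps came from GENCODE vM21 (GRCm38), and 16913 of 18017 genes with counts matched. Scaling was by TMM (edgeR 4.0.16, R 4.3.3), whose factors were 1.01 for the slimming and 0.989 for the control library, with 0.5 added to each count. Counting intervals are exact Clopper-Pearson intervals (95%) and, like the limit of 3 counts for a count of 0, cover counting error only. A gene was called expressed from 10 CPM in either library upwards, and a 2-fold difference replaced a test. Shared sequence was searched with blastn 2.17.0 (95% identity, 50 bases or more). Python 3.11.15, numpy 2.4.6, scipy 1.17.1, pandas 2.3.3, statsmodels 0.14.6 and matplotlib 3.10.9 were used. Simulated Poisson counts with planted fold changes were used to test the ratios, intervals and fold rule. They covered only genes with more counts than Sgo1, so not Sgo1, Sgo2a, Smc1b, Stag3 or Rec8. Spread from PCR was not modelled.

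The genes, lists and thresholds were chosen with earlier results of these data known. Named were the 8 genes, their paralogs, expressed partners at least 2-fold apart, the 2 partners of each role with the highest level per kilobase, the nearest genes of Pttg1 and of the genes with the highest and lowest ratio, and the most abundant marker of each list. Other genes were named after their values were seen. Alternatives were total-count and DESeq2 1.42.0 scaling, 5 added to each count, removal of the length trend (lowess), other filters and other transcript lengths.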

Additional observations from a re-analysis of the deposited data

How the results depend on the processing

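No paired analysis was possible because each group was 1 pooled library, and for the same reason none could be left out. Of 96 values recomputed under alternatives, 72 stayed within their counting interval or, where they had no interval, within 1.5 times. The other 24 moved, and 0 changed sign past 2-fold. A value with an interval counted as moved once it left that interval, even by less than 1.5 times. The log2 ratio of Pttg1 was 0.19 with total-count scaling, 0.18 with DESeq2 size factors and 0.067 with the length trend removed, under which Espl1 had 0.049. Scaling by total count shifted the median of the expressed genes by 0.03. None of the 7 genes with counts passed 2-fold under any scaling, added count or length correction tried, or without the filter on low counts. Rec8, without counts, had no ratio, and a stricter filter could only remove genes. Of the partner genes, 1 was at least 2-fold higher and 3 lower with no filter on low counts (17.7% and 20.9% of all genes with counts), and 1 higher and 1 lower with a filter at 5 CPM (4.05% and 3.23% of all genes at that level), a level added after the data were seen. The transcript length moved the comparisons between genes most. Pttg1 over Espl1 was 21.2 (slimming) and 18.4 (control) with median transcript lengths, 22.5 (slimming) and 19.5 (control) without length, and 202 (slimming) and 175 (control) with principal transcripts, a choice added after the data were seen. Espl1 over Smc3 was 19.5 (slimming) and 20.3 (control) with median lengths and 18.4 (slimming) and 19.2 (control) without length. The Smc1b share was 1.4% (slimming) and 1.74% (control) with median lengths. The Sgo2a share was 7.0% (slimming) and 10.3% (control) with median lengths and 37.7% (slimming) and 48.1% (control) without length. Median lengths count short annotated fragments, such as a median of 657 bases for Espl1 against 6658 bases for its longest transcript. Depth limits Smc1b, Stag3 and Rec8, whose counts were 25 or fewer in each library.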
